A study of Mus musculus with 24 samples.

Results

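The data described here are the 4 arrays of CD11b+ cells that were taken from the spleen of STAT6-KO animals, 1 from controls and 1 each at 1, 2 and 4 weeks after myocardial infarction (MI). They were chosen by their labels, by genotype and tissue, and make up 4 of the 24 arrays of the series. The series measured mRNA of such cells on one-colour Agilent mouse arrays, in 3 genotypes (WT, HDC-KO, STAT6-KO) and 2 tissues, spleen and bone marrow. All mice were male on a Balb/C background and 10 weeks old, and the STAT6-KO controls carried the same genotype label as the STAT6-KO mice with MI. Each array came from cells pooled from 5 mice, so each time point was 1 pool with no measure of how mice vary. No difference below therefore has a test or a p-value. The question put to these arrays was how the mRNA of the cells differed from control at each time after MI in mice labelled STAT6-KO.

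CD11b is the alpha chain of the integrin Mac-1, carried by neutrophils, monocytes, many macrophages, some dendritic cells and NK cells. The spleen holds a reserve of monocytes and can form blood cells outside the bone marrow, and both are drawn on after MI. STAT6 is the transcription factor that interleukin-4 and interleukin-13 activate through their shared receptor chain Il4ra, and in macrophages it drives genes such as Arg1, Retnla and Chil3.

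Levels are given throughout as the log2 signal of a probe minus the 75th percentile of its array, and a difference is the level after MI minus the level in control. A gene was compared where it was well above background on both arrays, and was counted as higher or lower when the difference was over 2-fold (over 1 on the log2 scale). The 3 comparisons share the control array, so whatever is particular to that array enters all of them.

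Stat6, the targeted gene, was well above background on all 4 arrays with each of its 3 probes. The probe with the highest mean lay at 1.94 in control and at 2.35, 2.44 and 2.12 at 1, 2 and 4 weeks, against 2.38, 2.79, 2.75 and 2.90 on the WT spleen arrays in the same order. The second probe lay at -0.29, -0.97, -1.11 and 0.73, against 1.17, 0.25, 0.04 and 1.29 in WT. The third lay at -0.87, -1.58, -1.72 and 0.19, against 1.00, 0.63, -0.43 and 1.08 in WT. The array labelled STAT6-KO MI 4 weeks thus lay within the WT range on 2 of the 3 probes, and the MI 2 weeks array did so on the first. Which part of the gene the allele lacks is not given in the sources used here, so a probe may lie outside it. Other genes placed the same array with the STAT6-KO arrays. Oas1a lay at 3.30, 3.50, 3.84 and 5.58 on the STAT6-KO arrays and between -7.00 and -3.42 on the WT spleen arrays, and Nab2, a neighbour of Stat6, lay between 2.18 and 2.55 against -0.43 to 0.34. Every value given below for 4 weeks rests on the array labelled STAT6-KO MI 4 weeks.

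The control array stood apart in a gene that reports sex. A probe of Xist, the RNA of the inactive X chromosome, lay at -2.06 on the control array and between -9.36 and -8.51 on the 3 arrays after MI, where it was not well above background. Ddx3y, which is Y-linked, lay at -1.35 in control and at 0.15, -0.17 and -0.41 after MI, while Eif2s3y, also Y-linked, lay at 1.95, 2.36, 2.19 and 1.79. The labels give male mice for all 4 pools, and the part of this in the differences from control was not tested. Differences between the arrays after MI, which do not use the control array, are given below for the main gene groups.

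The 75th percentile of the signal was 1358.6 in control and 1739.0, 1763.2 and 929.9 at 1, 2 and 4 weeks, and the share of spots well above background ran from 75.1% to 77.4%. The 4 arrays shared 1 slide in the order control, 1, 2 and 4 weeks, so time after MI and position on the slide cannot be told apart. Probes printed several times differed within an array by an SD of 0.06 to 0.08 (median over 316 to 321 probes, log2). The error model of the scanner software gave a typical error of 0.20 for a difference. These errors cover the array only, not the mice. Where another probe of a gene counted as higher or lower could be compared, it had the same sign in 80.8%, 81.8% and 81.3% of genes at 1, 2 and 4 weeks. Fewer also passed 2-fold with that sign on the mean of the other probes, in 74 of 313, 70 of 330 and 98 of 284 genes. Most calls thus rest on the probe used.

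At 1 week, 541 of 23900 genes (2.26%) were over 2-fold higher than control and 1908 (7.98%) lower. At 2 weeks the counts were 274 of 24188 (1.13%) and 2610 (10.8%). At 4 weeks they turned round, with 1424 of 23762 genes higher (5.99%) and 851 lower (3.58%). The median difference over all genes was -0.15, -0.14 and 0.05. How the calls were split between higher and lower depended on the scaling. The share of calls that were higher was 22.1%, 9.5% and 62.6% as given here, 45.6%, 43.2% and 47.5% when each array was centred on its median, and 38.5%, 31.6% and 52.9% after quantile normalization. For the gene lists below, medians between -0.27 and 0.27 could change sign under these 2 scalings (-0.27 was the farthest from 0 that did), so their direction is not settled, and medians farther from 0 kept their sign. Of the 23129 genes well above background on all 4 arrays, 7299 (31.6%) spanned over 2-fold. The MI 4 weeks array stood alone most often at the high end, over 2-fold above the next array for 920 genes, against 221 for control, 96 for 1 week and 19 for 2 weeks. Standing alone at the low end was most frequent at 1 week, with 270 genes.

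Differences also followed signal. The dimmest genes had a median of -0.35 at 1 week and -0.51 at 2 weeks, and 10.7% and 17.3% of them were counted as lower, against 3.63% and 3.08% among the genes in the highest signal class. The brightest 1% of genes had medians of -0.47, -0.55 and 0.31. The highest signal was similar on all 4 arrays (207952, 177154, 180755 and 194470), unlike the 75th percentile. For very bright genes such as S100a8, Csf1r, Il1b or H2-Ab1, a difference of this size was thus near the median of the class, from which single genes can depart. Differences of such genes are given below mainly where they were larger.

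**Figure D1:**
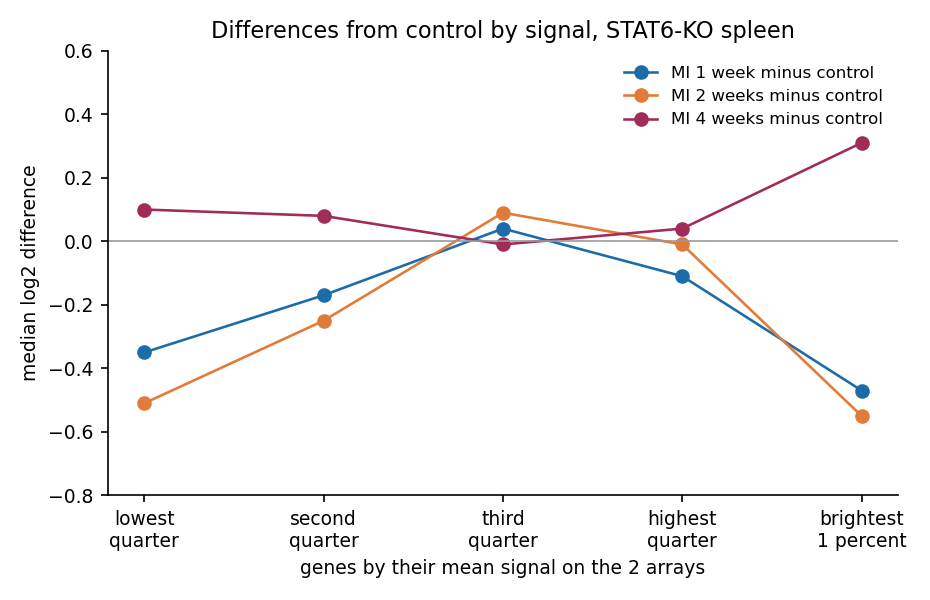
Median log2 difference from control (vertical axis) of genes grouped by their mean signal on the 2 arrays compared (horizontal axis: 4 classes of equal size, and the brightest 1%), with 1 line per time after MI. At 1 and 2 weeks the dimmest and the brightest genes lay below 0 (down to -0.51 and -0.55), while at 4 weeks the medians lay between -0.01 and 0.31.

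Of the 41 gene lists, interferon-induced antiviral genes at 4 weeks had the median farthest from 0. All 23 genes of the list on the array were higher than control there, 21 of them over 2-fold (5.99% of all genes), with a median of 2.19 against 0.05 over all genes. At 1 week the median was 0.74 and 5 were over 2-fold higher (2.26% of all genes), and at 2 weeks it was 0.50 and 2 were (1.13%). The 5 at 1 week include Irf7, whose spot had a bright local background (below). No member was over 2-fold lower at any time. These genes are switched on by type I and type III interferons through the factor ISGF3, which binds a short element in their promoters, and their products block steps of viral replication.

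To show that element, the RefSeq promoters (build GRCm38.p6) of 4 members and of 1 guanylate-binding protein were read, and the 160 bases before each transcription start are printed 5′ to 3′ on the strand of the gene. Capitals mark matches to GAAANNGAAA or, on the other strand, TTTCNNTTTC. Ifit3 lies on the plus strand at chr19:34583369-34583528, Ifit1 on the plus strand at chr19:34640729-34640888, Rsad2 on the minus strand at chr12:26456453-26456612, Isg15 on the minus strand at chr4:156200819-156200978 and Gbp2 on the plus strand at chr3:142620503-142620662. In Isg15, 3 matches overlap in 1 run.
Ifit3: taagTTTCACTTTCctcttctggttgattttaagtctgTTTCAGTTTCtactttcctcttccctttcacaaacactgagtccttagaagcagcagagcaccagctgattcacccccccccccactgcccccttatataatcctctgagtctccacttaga
Ifit1: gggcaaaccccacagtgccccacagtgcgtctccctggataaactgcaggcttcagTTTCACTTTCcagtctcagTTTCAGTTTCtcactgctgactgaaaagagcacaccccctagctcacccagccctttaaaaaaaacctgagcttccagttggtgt
Rsad2: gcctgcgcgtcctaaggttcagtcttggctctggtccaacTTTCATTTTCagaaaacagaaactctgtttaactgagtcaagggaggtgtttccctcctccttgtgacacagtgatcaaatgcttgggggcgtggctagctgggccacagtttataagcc
Isg15: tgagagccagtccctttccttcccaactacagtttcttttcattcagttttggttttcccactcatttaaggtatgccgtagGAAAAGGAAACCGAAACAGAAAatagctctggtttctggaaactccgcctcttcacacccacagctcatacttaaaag
Gbp2: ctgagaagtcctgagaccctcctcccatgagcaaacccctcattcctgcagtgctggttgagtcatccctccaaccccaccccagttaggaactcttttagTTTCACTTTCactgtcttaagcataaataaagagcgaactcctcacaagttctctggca

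In the 250 bases before the start, a match was present in 978 of 32851 RefSeq promoters (2.98%). By gene, with a match in any of its promoters, this was 936 of 27025 (3.46%), and the counts below are by gene. Of the 23 interferon-induced genes on the array, 17 had a promoter in the table and 7 of these held a match, namely Bst2, Ifit1, Ifit3, Isg15, Oas3, Rsad2 and Trim30a. Of the guanylate-binding and immunity-related GTPases, 9 had a promoter and 8 held one. Of the T cell genes, 7 had a promoter and 0 held one. Genes measured at 4 weeks were then compared where they had a symbol and a RefSeq promoter. Of these, 57 of 431 with a match (13.2%) were over 2-fold higher, with a median difference of 0.11. Without a match, 628 of 12281 (5.11%) were, with a median of 0.03. At 1 week these shares were 3.23% and 2.72%, and at 2 weeks 1.82% and 1.15%. A match describes the letters of these windows and not binding.

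Among the members, Ifit3, an RNA-binding antiviral protein, lay at 0.77 in control and at 2.40, 1.85 and 5.40 at 1, 2 and 4 weeks, a difference of 4.64 (24.9-fold) at 4 weeks. Its relative Ifit1, which binds RNA that lacks the mark of host mRNA, lay at 0.29, 1.63, 0.97 and 4.29. Oasl2, of the oligoadenylate synthetase family, lay at 0.12, 1.20, 0.65 and 4.69. All 3 had the same order, lowest in control and far highest at 4 weeks, with 1 week above 2 weeks. Rsad2, the antiviral enzyme viperin, lay at -0.44, 0.73, 0.24 and 3.23. Isg15, a ubiquitin-like modifier, lay at 3.75, 4.03, 4.26 and 5.94, and its second probe differed by 3.04 at 4 weeks. Usp18, which removes Isg15 from proteins and damps the interferon receptor, lay at -0.03, 0.71, 0.65 and 2.66. On the probe used, Isg15 hardly differed from control at 1 week (0.28) but was higher by 2.19 at 4 weeks. Its second probe differed by 0.77 at 1 week and 0.95 at 2 weeks. Zbp1, a sensor of nucleic acids, lay at -0.55, -0.99, -1.18 and 1.46, below control at 1 and 2 weeks on this probe, while its other probe differed by 0.66, 0.93 and 2.65. Both probes were over 2-fold higher at 4 weeks. The smallest differences at 4 weeks were those of Parp14 (0.79) and Trim30a (0.92). Xaf1 differed by 2.25 on the probe used and by 0.88 on its other probe.

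Irf7, the factor that amplifies type I interferon production, lay at -1.24, 2.19, -1.30 and 2.62, and its 1 week value needs care. A patch of 61 spots on the MI 1 week array had a local background over 5 times the median of that array (20.0), reaching 38742, while the other 3 arrays had 0 such spots. The only Irf7 probe lay in it, with a local background of 6963.5. Without these spots the median of the interferon list at 1 week was 0.65 in place of 0.74. At 4 weeks Irf7 was outside any such patch and higher by 3.86.

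**Figure D2:**
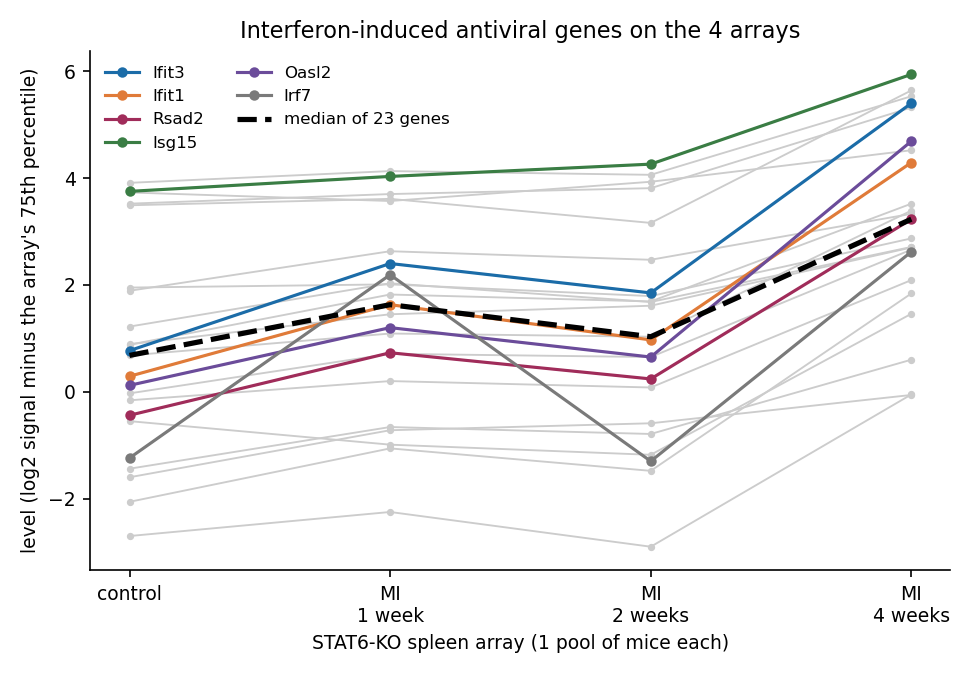
Level of each of the 23 interferon-induced antiviral genes (vertical axis, log2 signal minus the array's 75th percentile) on the 4 STAT6-KO spleen arrays (horizontal axis), 1 pool of mice each, with 6 genes in colour and the median as a dashed line. The median lay at 0.68, 1.63, 1.03 and 3.23, and the isolated high value of Irf7 at 1 week came from a spot with a bright local background.

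Without the control array the 4 week difference was much the same. Against 1 week the interferon list had a median of 1.89 at 4 weeks, with 17 of 23 members over 2-fold higher (14.4% of all genes were) and 0 lower, and against 2 weeks it had a median of 2.00, with 20 of 23 higher (17.5% of all genes). Between 1 and 2 weeks the median was -0.16, and 1 member was over 2-fold lower at 2 weeks (2.55% of all genes). That member was Irf7, whose 1 week value came from the patch of bright local background. Each scaling kept the sign of the list medians against control, and at 4 weeks the median was 2.05 when arrays were centred on their median and 2.08 after quantile normalization.

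The guanylate-binding proteins and immunity-related GTPases, which attack microbes inside vacuoles and respond mainly to interferon gamma, were also highest at 4 weeks. Their median was 0.15, 0.34 and 1.14, and 10 of 15 were over 2-fold higher at 4 weeks (5.99% of all genes). Gbp2 lay at 1.55, 1.78, 1.76 and 2.78, Igtp at 2.06, 2.37, 2.48 and 3.68, and Gbp5, which promotes inflammasome assembly, at -1.40, -1.64, -1.41 and 0.29. In these 3 the arrays at 1 and 2 weeks lay within 0.42 of control. Iigp1 lay at 0.89, 1.04, 1.32 and 0.33, a difference of -0.56 at 4 weeks, but its other probe differed by 1.5 there. Gbp6 had a difference of -1.79 at 1 week on the probe used and 0.48 on its other probe. Cxcl9 and Cxcl10, chemokines that interferons induce and that recruit T cells and NK cells, lay at -1.28, -0.83, -1.11 and -0.04 and at 0.27, 0.79, 0.72 and 2.84. Stat2, a subunit of ISGF3, lay at 2.75, 3.08, 3.20 and 3.95.

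The same list had another time course on the WT spleen slide, but not at 2 and 4 weeks on the STAT6-KO bone marrow slide. On the WT spleen slide the median of the interferon list was 1.71, 1.14 and 0.66 at 1, 2 and 4 weeks (-0.05, -0.03 and 0.10 over all genes), highest at 1 week and lowest at 4 weeks, where STAT6-KO spleen was lowest at 2 weeks and highest at 4 weeks. On the STAT6-KO bone marrow slide, where the cells came from mice of the same genotype, it was 0.52 at 2 weeks and 2.24 at 4 weeks (0.01 and -0.10 over all genes). The STAT6-KO spleen medians at these times were close, at 0.50 and 2.19. With 1 array per time and slide, the difference between genotypes was not tested. Over all genes, the differences in STAT6-KO spleen correlated with those in WT spleen by Pearson's r = 0.36, 0.40 and 0.11 at 1, 2 and 4 weeks (22298 to 23489 genes, which are not independent) and with those in STAT6-KO bone marrow by 0.14 and 0.27 at 2 and 4 weeks. None of these pairs shares an array, but the slides share the order of array positions. Whether the spleen and bone marrow pools came from the same mice is not given in the sources used here. The Xist probe that was high on the STAT6-KO spleen control array lay at -3.18 on the STAT6-KO bone marrow control array. At 2 and 4 weeks in bone marrow it lay at -8.43 and -8.69.

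**Figure D3:**
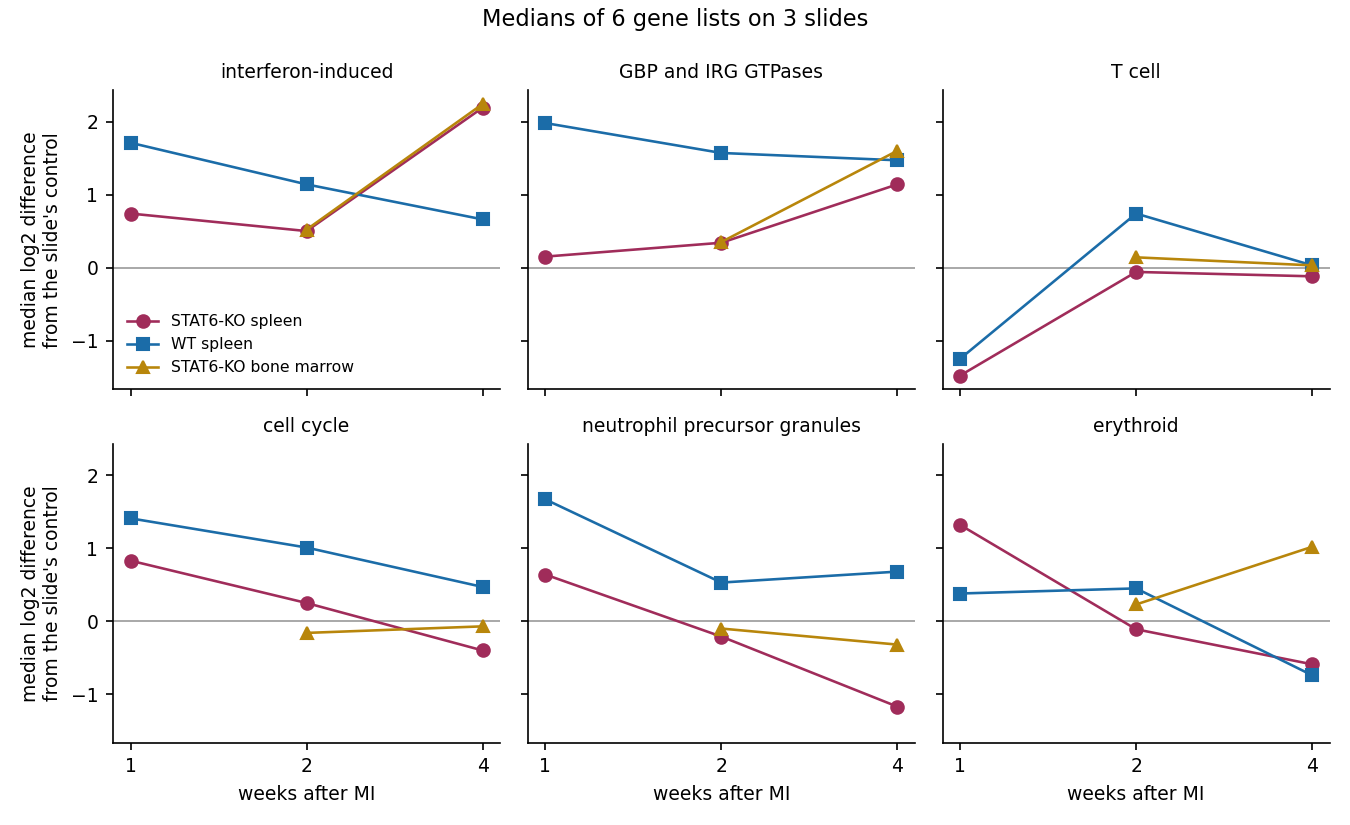
Median log2 difference of 6 gene lists from the control array of the same slide (vertical axis) at 1, 2 and 4 weeks after MI (horizontal axis) in STAT6-KO spleen (circles), WT spleen (squares) and STAT6-KO bone marrow (triangles, 2 and 4 weeks only). The interferon-induced list ran down from 1.71 to 0.66 in WT spleen and up to 2.19 at 4 weeks in STAT6-KO spleen, while the T cell list lay below -1 at 1 week on both spleen slides.

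Genes of lymphocytes were measured in these CD11b+ preparations, and all 12 T cell genes, 12 B cell genes and 12 NK genes were well above background on all 4 arrays. In bulk RNA, fewer cells of a type and less RNA per cell cannot be told apart. At 1 week the T cell genes had a median of -1.48, and 10 of 12 were over 2-fold lower (7.98% of all genes) and 0 higher. At 2 and 4 weeks the median was -0.06 and -0.12, with 1 and 0 members over 2-fold lower (10.8% and 3.58% of all genes). Tcf7, a transcription factor of T cell development, lay at 0.89 in control, -0.84 at 1 week, 0.71 at 2 weeks and 0.43 at 4 weeks, and its second probe differed by -1.61 at 1 week. Cd3e, a chain of the T cell receptor complex, lay at 0.84, -0.74, 0.10 and 0.74. Lck, the kinase that starts T cell receptor signalling, lay at 2.79, 1.42, 3.14 and 3.18. In all 3 the 1 week array was the low one. Against 1 week, the T cell list was higher by 1.42 at 2 weeks (8 of 12 over 2-fold higher, 2.58% of all genes). At 4 weeks it was higher by 1.35 (9 of 12, 14.4% of all genes). The low point at 1 week thus did not rest on the control array. On the WT spleen slide the list had a median of -1.25, 0.74 and 0.03.

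B cell and NK genes ran upward with time. The B cell median was -0.53, 0.42 and 0.87, with 0, 1 and 4 of 12 genes over 2-fold higher (2.26%, 1.13% and 5.99% of all genes) and 2, 1 and 0 lower (7.98%, 10.8% and 3.58%). Pax5, the factor that keeps B cell identity, lay at -1.81, -2.37, -1.57 and -0.05. Cd79a, a chain of the B cell receptor, lay farther below control at 1 and 2 weeks, with levels of -2.78, -2.09 and -0.85 after MI, differences of -1.77, -1.08 and 0.16 from control. The NK and cytotoxic list had a median of -0.59, 0.36 and 1.20, and 9 of 12 genes were over 2-fold higher at 4 weeks (5.99% of all genes). Gzma, the protease granzyme A, lay at 2.39, 1.61, 3.32 and 4.18, Gzmb at -1.42, -1.70, -0.65 and 0.17, and the receptor Ncr1 at -2.28, -2.28, -0.85 and -0.44. These levels were at or near their lowest at 1 week and highest at 4 weeks. Prf1, perforin, differed less, at -1.57, -2.14, -2.15 and -1.31. Plasma cell genes had medians below control at each time, of -0.76, -0.61 and -0.59. Tnfrsf17, a survival receptor of plasma cells, lay at 0.48, -1.22, -0.81 and -1.22, and Jchain, which joins secreted antibodies, at 5.80, 4.89, 4.62 and 4.60.

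Genes of blood formation were highest at 1 week. Erythroid genes had a median of 1.32 then, and 10 of 15 were over 2-fold higher (2.26% of all genes) and 0 lower. At 2 weeks the median was -0.11 (0.23 when arrays were centred on their median, so its sign was not settled). At 4 weeks the median was -0.59, with 3 over 2-fold lower (3.58% of all genes). Alas2, the erythroid enzyme that starts heme synthesis, lay at 0.19, 1.88, 0.54 and -0.64. Slc4a1, the anion exchanger of red cells, lay at 1.30, 3.05, 0.68 and -0.07, and Epb42, a protein of the red cell skeleton, at -4.67, -1.78, -4.37 and -5.03. Each was highest at 1 week by over 1 log2 unit. Cell cycle genes had a median of 0.83 at 1 week, with 26 of 27 above control and 7 over 2-fold higher (2.26% of all genes), then 0.25 and -0.40. Mki67, a marker of dividing cells, lay at 1.97, 2.92, 2.35 and 1.28, and its second probe differed by 0.98, 0.48 and -0.85. Top2a, which untangles DNA at division, lay at -2.38, -0.90, -1.82 and -2.44. Their levels stepped down from 1 to 4 weeks, and at 4 weeks Mki67 was below control. Among the arrays after MI, the cell cycle list had a median of -1.35 at 4 weeks against 1 week, with 18 of 27 genes over 2-fold lower (4.52% of all genes), and the erythroid list had -1.90, with 11 of 15 lower.

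Granule genes of neutrophil precursors ran the same way. Their median was 0.64, -0.21 and -1.17 at 1, 2 and 4 weeks, and the 2 week value turned to 0.13 when arrays were centred on their median. At 4 weeks all 14 were below control and 9 were over 2-fold lower (3.58% of all genes). Mpo, the myeloperoxidase of the primary granules made in promyelocytes, lay at 2.67, 3.49, 2.40 and 0.37. The serine proteases Elane and Ctsg lay at 0.78, 1.97, 0.43 and -0.92 and at 1.28, 2.03, 0.65 and -1.75. Ms4a3, a marker of granulocyte and monocyte progenitors, lay at 0.40, 1.22, 0.36 and -2.13. These 4 genes shared 1 order, with 1 week highest and 4 weeks lowest, and Ctsg differed by -3.03 at 4 weeks. Fcnb, ficolin B, was over 2-fold higher at 1 and 2 weeks, with levels of -1.40, 0.69, -0.26 and -2.51. Mmp8, the neutrophil collagenase of the specific granules, lay apart at 5.35, 3.18, 3.57 and 2.76 and was over 2-fold lower at each time. Of the later granule proteins, Lcn2 lay at 4.69, 5.16, 4.84 and 3.47 and Ltf at 5.62, 5.78, 5.56 and 4.90. Against 1 week the list had a median of -1.69 at 4 weeks, with 10 of 14 genes over 2-fold lower (4.52% of all genes). In WT spleen its median was 1.67, 0.53 and 0.68, and at 4 weeks in STAT6-KO bone marrow it was -0.32.

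Genes of mature neutrophils had medians below control, of -0.58, -0.74 and -0.54, and 4, 4 and 5 of 15 were over 2-fold lower (7.98%, 10.8% and 3.58% of all genes). Many of them are among the brightest genes on the array, whose own medians are given above. Il1r2, the decoy receptor of interleukin-1, lay at 3.65, 2.35, 2.14 and 2.00, and Fpr1, a receptor for bacterial peptides, at 3.85, 2.67, 2.82 and 2.90. The control array was the highest in both. Slfn4, a gene that interferons also induce, went the other way at 3.45, 4.14, 3.81 and 5.03. Larger differences were seen in the stefin A genes, inhibitors of cysteine proteases that neutrophils express, a group put together after its values were seen. All 7 were over 2-fold lower at every time (7.98%, 10.8% and 3.58% of all genes), with medians of -2.09, -2.27 and -1.63. Stfa3 lay at 5.00, 1.93, 1.99 and 1.60 and Stfa1 at 5.18, 3.09, 2.92 and 2.48. Their sequences are closely related, so the probes may share signal. The chemoattractant Prok2, which myeloid cells release, had the largest difference of any gene below control at 4 weeks, with levels of 3.56, -0.40, -0.73 and -2.00. The neutrophil receptor Cxcr1 lay at 2.31, -0.05, 1.10 and 0.72. For these genes the control array stood apart from all 3 arrays after MI. Among the arrays after MI the stefin A medians were -0.22, 0.21 and 0.37 with 0 of 7 past 2-fold, so the group passed 2-fold against control alone.

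Genes that define the sorted population differed little. The 9 measured genes of the CD11b+ myeloid list had medians of 0.01, -0.12 and 0.01, and 1 was over 2-fold lower at 1 time, Spi1 at 2 weeks (0.56, -0.18, -0.69 and 0.58). Itgam, which encodes CD11b itself, lay at 4.23, 4.24, 4.11 and 3.52, and its other probes differed by -0.77, -1.03 and -0.05 and by 0.23, 0.24 and 0.40. Monocyte genes had medians of -0.20, -0.12 and 0.52. Ace and Treml4, which mark the patrolling monocytes, lay at -1.69, -1.01, -1.45 and 0.39 and at -0.52, 0.05, -0.65 and 0.49. F13a1 and Cd14, higher in classical monocytes, lay at 4.37, 3.65, 4.22 and 2.84 and at 3.33, 2.68, 2.77 and 2.16. At 4 weeks the first pair was thus over 2-fold above control and the second over 2-fold below it. Of the 11 monocyte genes, 2 were over 2-fold higher and 2 lower there (5.99% and 3.58% of all genes). Ly6c1, also high in classical monocytes, lay above control at 4 weeks, by 0.85 on the probe used and by 1.46 on its other probe. Macrophage genes had medians of 0.25, -0.11 and -0.08, red pulp and marginal zone macrophage genes 0.32, -0.08 and 0.02, and dendritic cell genes 0.56, 0.14 and 0.47. Siglec1, a lectin of marginal zone macrophages that interferons induce, lay at -1.63, -0.63, -1.46 and 0.15 (0.07, -0.90 and 1.91 from control on its other probe), and Cd209a, a lectin of monocyte-derived dendritic cells, at 0.56, 1.69, 1.74 and 2.50.

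**Figure D4:**
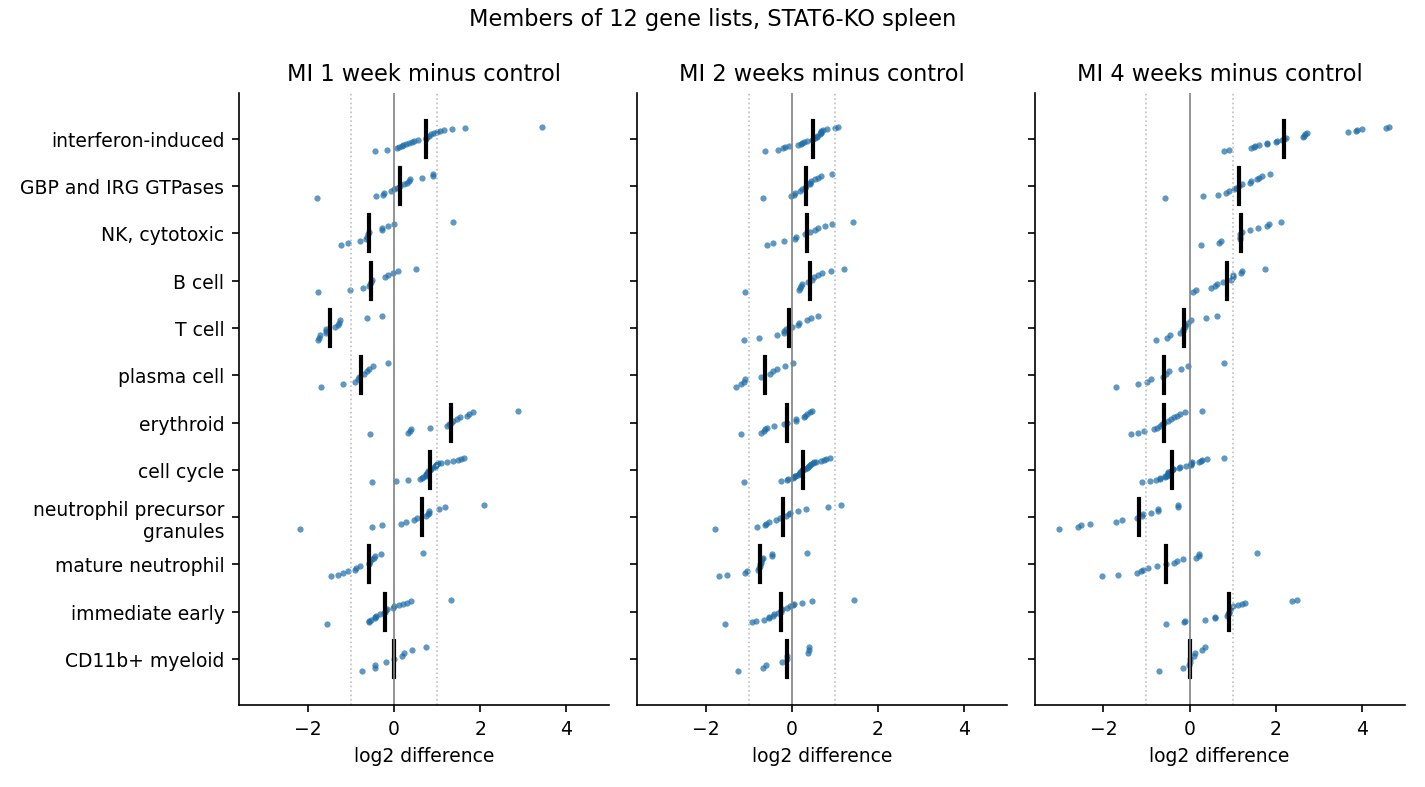
Log2 difference from control (horizontal axis) of every measured member (points) of 12 gene lists, at 1, 2 and 4 weeks after MI, with the list median as a black bar and dotted lines at 2-fold. T cell genes lay to the left and erythroid and cell cycle genes to the right at 1 week (medians -1.48, 1.32 and 0.83), and interferon-induced and NK genes to the right and granule genes to the left at 4 weeks (2.19, 1.20 and -1.17).

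At 4 weeks several groups of stress and inflammatory genes also stood above control. Immediate early genes, the fast transcriptional answer to stimulation and to handling of cells, had medians of -0.22, -0.26 and 0.91, with 6 of 19 over 2-fold higher at 4 weeks (5.99% of all genes). Fosb lay at 0.35, 0.74, 0.83 and 2.73, and Atf3, which stress and inflammatory signals induce, at 1.77, 3.10, 3.21 and 4.27, above control at each time. The signs at 1 and 2 weeks changed with the scaling. Heat shock genes had medians of -0.07 (0.14 when arrays were centred on their median), 0.41 and 0.61. Hspa1a, the inducible Hsp70 chaperone, lay at -3.47, -2.90, -1.48 and 1.04, a difference of 4.51 (22.7-fold) at 4 weeks, while Hsph1, its partner, lay at 0.45, 0.38, 2.02 and 1.84 and Hspb1 at -2.29, -1.94, -0.61 and -0.92. For these genes the order followed time in Hspa1a, and the other 2 were highest at 2 weeks. Both lists were above control at 4 weeks on the other slides too. The immediate early median was 0.60 in WT spleen and 0.69 in STAT6-KO bone marrow, and the heat shock median 0.55 and 0.56. Hspa1a differed by 4.45 in WT spleen. The part of cell handling in these values was not tested.

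Inflammatory chemokines had medians of -0.50, -0.44 and 0.46, and 6 of 16 were over 2-fold higher at 4 weeks (5.99% of all genes). Ccl2, which draws monocytes through Ccr2, lay at -0.40, -1.28, -0.69 and 1.87, and Ccl3, which many leukocytes follow, at 2.99, 2.89, 3.13 and 4.74. Of the neutrophil chemokines, Cxcl1 was among the 6, with levels of -3.40, -3.68, -3.97 and -2.31, and the other two were below control at each time. Cxcl2 lay at 2.70, 1.16, 0.82 and 2.27 and Cxcl3 at -3.11, -4.02, -4.55 and -4.09. The inflammatory cytokine Tnf lay at -2.44, -1.73, -1.87 and -0.41, and Lif, of the IL-6 family, at -3.61, -5.47, -3.77 and -1.31. Il6 lay at -4.23, -3.90, -3.52 and -3.41 and was not over 2-fold from control at any time. The list of IL-6, TNF and IL-10 family genes had medians of -0.15, -0.16 and 0.31. Il1a lay at -3.32, -2.05, -3.47 and -3.82, over 2-fold higher at 1 week alone, and Il1rn, the inhibitor of the interleukin-1 receptor, at -2.44, -3.52, -3.44 and -0.96. The interleukin-1 and inflammasome list had medians of -0.24, -0.38 and -0.05. Nlrp3, the sensor of that inflammasome, lay at -0.06, -1.40, -1.39 and 0.37, and its second probe differed by 0.10, -0.28 and 0.77, so the low values at 1 and 2 weeks rest on 1 probe.

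Genes of antigen presentation were moderately higher at 4 weeks. The MHC class II list had medians of 0.13, 0.25 and 0.67, with 6 of 15 over 2-fold higher at 4 weeks (5.99% of all genes). Cd74, the invariant chain, lay at 3.48, 4.48, 4.00 and 5.25, H2-Aa at 0.71, 1.52, 0.96 and 1.89, and the co-stimulatory receptor Cd40 at 0.96, 1.04, 1.98 and 2.35. MHC class I genes had medians of -0.02, 0.19 and 0.62, with 2 of 12 over 2-fold higher at 4 weeks (5.99% of all genes). Tap1, which carries peptides to MHC class I, lay at -1.51, -0.66, -1.09 and -0.13.

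In the pathway of the deleted gene, the STAT6-linked macrophage list had medians of 0.28, 0.15 and -0.04. Of 16 measured members, 2, 1 and 4 were over 2-fold higher (2.26%, 1.13% and 5.99% of all genes). Those over 2-fold lower were 0, 1 and 3 (7.98%, 10.8% and 3.58% of all genes). Arg1, arginase of type 2 macrophages, was well above background at 1 and 2 weeks only (-3.34 and -6.31, against a measured -7.12 in control and -7.96 at 4 weeks). Retnla lay at -0.89, -0.83, -1.78 and -1.05, and Ccl22 was not well above background on any of the 4 arrays. Chil3, which neutrophil precursors also express, lay at 5.76, 5.47, 5.25 and 4.20, over 2-fold below control at 4 weeks. Il4ra lay at 0.69, -1.38, -0.79 and 1.04, a difference of -2.07 at 1 week and -1.48 at 2 weeks, and its second probe gave -0.47 and -1.09. Il13ra1, which pairs with Il4ra, lay at -0.56, -1.03, -2.00 and -0.78. Among STAT and feedback genes the medians were -0.41, -0.03 and 0.11. Stat3 lay at 3.79, 3.24, 3.50 and 3.92, Stat5b at 5.20, 4.81, 4.80 and 5.31, and Cish, a feedback inhibitor of STAT5, at 1.40, 0.24, 1.66 and 0.71.

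TGF-beta genes, which drive matrix formation, had medians of 0.06, -0.04 and -0.10 over 21 ligands, receptors and Smads. Tgfb1 lay at -2.41, -1.06, -1.70 and -0.99, over 2-fold higher at 1 and 4 weeks. Tgfb2 lay at -3.05, -2.83, -3.54 and -5.64, and its second probe also differed by -2.73 at 4 weeks. Tgfb3 lay at -1.89, -4.17, -3.49 and -2.72. The 3 ligands thus lay in different orders over time. Ltbp3, which stores latent TGF-beta, lay at -2.69, -3.04, -3.79 and -0.79, and its other probe differed by -0.93, -0.69 and 0.96. Fibroblast and matrix genes were dim in these cells, and 13 of 14 were compared, with medians of 0.06, -0.53 and 0.72. Col3a1, a fibrillar collagen, lay at -6.32, -4.62, -4.69 and -2.45 and Bgn, a matrix proteoglycan, at -1.73, -2.94, -3.21 and -0.43. Pdgfrb, a receptor of fibroblasts and pericytes, lay at -3.05, -2.62, -2.40 and -1.71. At 4 weeks 6 members were over 2-fold higher (5.99% of all genes) and 1 lower (3.58%), Fn1 (4.80, 4.60, 4.26 and 3.73). Collagenase Mmp13 lay at -2.93, -3.20, -2.53 and -0.61.

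Genes of 2 further cell types differed by larger amounts than most. Eosinophil granule genes were high at 1 and 2 weeks. Prg2, the major basic protein, lay at -2.11, 0.73, 1.84 and -2.94, a difference of 3.95 (15.4-fold) at 2 weeks, and Epx, eosinophil peroxidase, at -6.04, -2.37, -2.42 and -6.27, the last not well above background. Both were high at 1 and 2 weeks and low in control and at 4 weeks. The other 8 genes of the eosinophil list did not pass 2-fold at any time. Ccr3, the eotaxin receptor, lay at 2.57, 3.11, 3.16 and 2.14 and Siglecf at 1.15, 1.13, 1.55 and 1.00. The median of the list was 0.33, 0.68 and -0.15.

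Many genes of the exocrine pancreas were above control, a group put together after its values were seen. Of 19 such genes compared, 14, 11 and 18 were above control at 1, 2 and 4 weeks, with medians of 1.47, 0.46 and 1.55. Those over 2-fold higher were 11, 8 and 11 (2.26%, 1.13% and 5.99% of all genes). Those over 2-fold lower were 2, 3 and 0 (7.98%, 10.8% and 3.58% of all genes). Try4, a trypsinogen, lay at -4.03, -0.25, -0.97 and 0.25, Pnlip, pancreatic lipase, at -5.39, -1.65, -2.67 and -1.06, and Amy2a5, an amylase, at -2.43, 0.98, 0.26 and 1.39. The control array was the lowest in each by over 2 log2 units. The list also differed among the arrays after MI. At 4 weeks 18 of 21 genes were over 2-fold higher than at 2 weeks (17.5% of all genes), with a median of 1.41. At 2 weeks against 1 week the median was -0.75. On the WT spleen slide the list lay the other way, with medians of -1.63, -1.44 and -0.89. These enzymes are products of acinar cells and not of CD11b+ cells, and their part in other differences was not tested. Ctrl, a chymotrypsin, was over 2-fold below control at 1 and 2 weeks, at -1.42, -2.87, -3.36 and -1.22, as was the lipase Cel, and Clps, a cofactor of Pnlip, was so at 2 weeks.

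**Figure D5:**
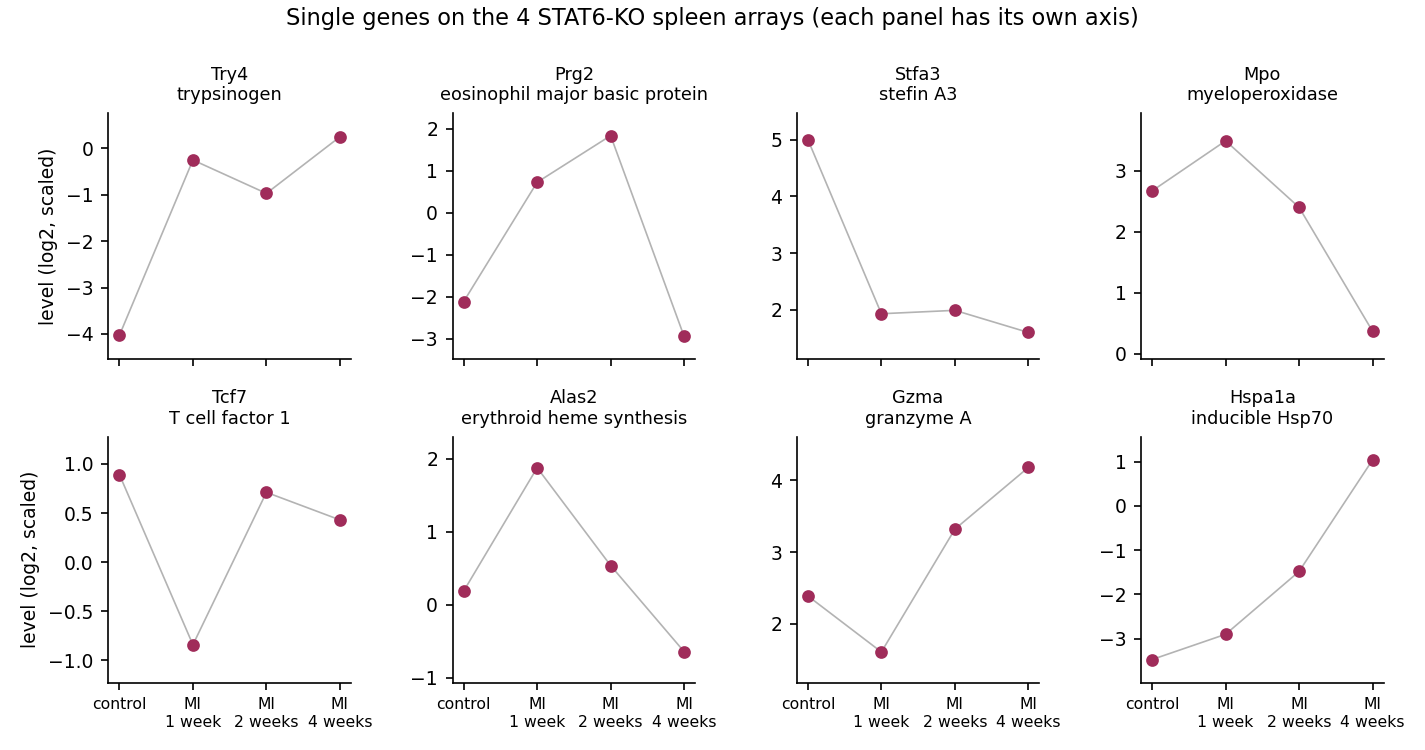
Level (vertical axis, log2 signal minus the array's 75th percentile, own scale in each panel) of 8 genes on the 4 STAT6-KO spleen arrays (horizontal axis), 1 point per array. Try4 and Stfa3 separated control from the arrays after MI (-4.03 against -0.97 to 0.25, and 5.00 against 1.60 to 1.99), Prg2 separated 1 and 2 weeks (0.73 and 1.84) from the rest, and Hspa1a was higher on each later array, up to 1.04.

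The genes with the largest differences at each time were read by rank, 10 in each direction. At 1 week the first 3 above control, Crisp1 (7.74), Pantr1 (7.68) and Zfp54 (5.31), and Irf7 all lay in the patch of bright local background, at 35371, 11213.5, 6039 and 6963.5. The remaining 6 were the pancreatic enzymes Try4, Pnlip, Try5 and Amy2a5, the amylase Amy1 and the eosinophil gene Epx. Of 28 genes compared with spots in that patch, 19 were over 2-fold higher at 1 week and 0 lower. Below control at 1 week, Fam13c lay at 0.41, -4.74, -5.69 and 1.46, so low at 1 and 2 weeks only. Prok2, described above, was second and differed by -3.96. Hoxd13, Trhr2, Mbl2, Gfra4 and Nwd2 had the same course, low at 1 and 2 weeks and above control at 4 weeks. The fall at 1 week was also seen on the WT spleen slide for Fam13c (-6.36), Hoxd13 (-2.62), Trhr2 (-1.76) and Nwd2 (-2.30). There Gfra4 differed by 0.20, and Mbl2 was not compared. Gfra4, a receptor of the GDNF family, lay at 3.67, 0.36, 0.76 and 4.84 (-1.14, -1.80 and 0.30 from control on its other probe), and Trhr2, a receptor for thyrotropin-releasing hormone, at -2.44, -6.17, -6.40 and -0.95.

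At 2 weeks the genes above control were again Prg2 and Epx, the enzymes Try4, Try5, Pnlip, Amy2a5 and Amy1, and Ccdc88a (3.16), Mak (2.53) and Chp2 (2.21). Mnd1, which acts in meiotic recombination, was low at each time, at 2.07, -1.09, -2.29 and -2.89, and its second probe differed by -2.34, -3.64 and -4.37. Ttbk1 differed by -3.99 on the probe used and by 0.54 on its other probe. At 4 weeks the 10 highest held Ifit3, Oasl2, Ifit3b (4.54) and Ifit1 of the interferon-induced genes, Hspa1a, the enzymes Pnlip (4.34), Try4 (4.28) and Try5 (4.17), Rnu2-10, a spliceosomal RNA gene (4.76), and Syna, an envelope-derived gene of the placenta (4.13). Rnu2-10 lay at -1.92, -3.52, -4.12 and 2.84 and Syna at -2.42, -3.86, -4.03 and 1.71, both lowest at 2 weeks. Below control were Prok2 (-5.56), Mnd1, Stfa3, Ctsg, Ror2 (-3.10) and Vcan, a matrix proteoglycan of monocytes, which differed by -4.17 on the probe used and by -0.78 on another. Trnp1 (-3.74) and Ajap1 (-3.09) differed by -0.09 and -0.46 on their other probes.

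Of genes seen on 1 array of a comparison only, 492 were well above background at 1 week and not in control, and 772 in control and not at 1 week. The same counts were 846 and 554 at 2 weeks and 516 and 979 at 4 weeks. The largest bounds above control were Macc1, Kpna7 and Gpr21 at 1 week, all 3 in the patch of bright local background, Olfr1385, at least 6.71-fold higher, at 2 weeks, and Hcar1, at least 15.2-fold higher, at 4 weeks. Below control, Sh3rf3 was at least 22.1-fold lower at 1 week, Olfr532 at least 16.1-fold at 2 weeks and Gpc3 at least 9.85-fold at 4 weeks, and Tbx4 was at least 10.3-fold, 12.8-fold and 7.07-fold lower. A bound sets the brighter array against the lowest signal well above background on the dimmer array, or the gene's own signal there if higher.

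The other lists had medians nearer to control, some of them with members on both sides. Oxidative phosphorylation subunits had medians of -0.10 at 1 week and -0.07 at 4 weeks, with 0 past 2-fold at any time. Glycolysis and hypoxia genes had -0.23, -0.27 and -0.26, Toll-like receptors -0.22, -0.06 and -0.14, and Fc receptors -0.17, -0.12 and 0.09. The medians of chemokine receptors were -0.38, 0.06 and 0.26, of myeloid transcription factors -0.09, -0.14 and 0.07, and of integrins that pair with CD11b 0.05, 0.09 and 0.39. Basophil and mast cell genes had 0.41, 0.42 and 0.18. At 1 week 2 of 11 were over 2-fold higher and 2 lower (2.26% and 7.98% of all genes). The medians were, for platelet genes, 0.17, 0.06 and 0.34, and for iron and heme genes 0.21, -0.07 and -0.03. Matrix metalloproteases and their inhibitors had -0.42, -0.39 and -0.53. At 4 weeks 2 of 11 were over 2-fold higher and 3 lower (5.99% and 3.58% of all genes), with differences from -2.59 to 2.32. Ribosomal proteins, which are among the brightest genes, had -0.43, -0.54 and 0.21, and -0.02, 0.00 and -0.06 after quantile normalization. Within the chemokine receptors, Cxcr4, which holds cells in the marrow, lay at 2.19, 2.35, 2.37 and 3.71, over 2-fold higher at 4 weeks alone.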

How the data were processed

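RNA of CD11b+ cells, pooled from 5 mice per array, was labelled with Cy3 and hybridised by the authors to Agilent mouse arrays, which were read with Agilent Feature Extraction 11.0.1.1. The deposited signal, not on a log2 scale, is a spot intensity on a linear scale, with background subtracted and spatial trends removed, and not scaled between arrays. The submitters' processing notes name GCRMA and the paper names Genespring, and neither output was used here. Of 24 arrays, 22 held all spots and the other 2 were not used here. Over the 22 arrays 3055 spots flagged as outliers were left out, and 0 spots were saturated. Probes (39429) were named through RefSeq accessions, which gave 27234 a symbol, for 20659 genes.

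The log2 of each signal was used, less the log2 of the 75th percentile of all non-control spots on the same array. Spots of a probe were averaged. The probe with the highest mean over 22 arrays stood for a gene. With 1 array per condition no test was run, and a threshold of 2-fold was used. The steps were tested on simulated data. The genes named are those of 41 gene lists and the 10 largest differences in each direction at each time with a symbol that is not provisional, and the 3 largest bounds. The lists and the arrays described were chosen with earlier results of these data known, and 2 lists (stefin A, exocrine pancreas) were added after their values were seen. Alternatives were centring on the median, quantile normalization, normexp (offset 50, limma 3.58.1 in R 4.3.3), the percentile over probes well above background on all arrays, other filters and probe rules, and a threshold of 4-fold. Leaving out spots with a local background over 5 times the median of their array, with and without normexp, was chosen after seeing the data. The number of arrays limits the precision. Python 3.11.15, numpy 2.4.6, pandas 2.3.3 and matplotlib 3.10.9 were used.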

Additional observations from a re-analysis of the deposited data

Results flagged for a closer look

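For 6 of the 41 gene lists the medians of the 3 arrays after MI lay on one side of control in STAT6-KO spleen and on the other side in WT spleen, which is why they are given here. The difference between genotypes was not tested, since each condition had 1 array. The values are the mean of the 3 list medians in STAT6-KO minus that in WT (log2), which set 2 control arrays on 2 slides against each other. Plasma cell genes differed by -1.36 (-0.65 in STAT6-KO and 0.71 in WT), mature neutrophil genes by -0.89 (-0.62 and 0.27) and glycolysis and hypoxia genes by -0.57 (-0.25 and 0.32). Platelet and megakaryocyte genes differed by 1.01 (0.19 and -0.82), dendritic cell genes by 0.69 (0.39 and -0.30) and integrins that pair with CD11b by 0.41 (0.18 and -0.23). In STAT6-KO spleen the side of control was not settled for glycolysis and hypoxia genes, whose median at 2 weeks was -0.27 and became 0.07 when arrays were centred on their median and 0.02 after quantile normalization. The medians of the other 5 lists kept their sign under these scalings in STAT6-KO spleen, and WT spleen was not rescaled. Some WT medians lay near 0, at -0.03 for dendritic cell genes at 4 weeks and 0.09 for mature neutrophil genes at 2 weeks. Those of the integrins were -0.11 at 1 and 4 weeks, and that of plasma cell genes was 0.19 at 4 weeks. The side of control in WT was thus not settled for these lists. The 2 lists put together after their values were seen, stefin A and exocrine pancreas, also lay on opposite sides. In WT spleen the stefin A medians were 0.48, 0.04 and 0.58, and the others are given above.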

How the results depend on the processing

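No paired analysis was possible because each condition had 1 array. Of 1419 list medians under the alternatives run, 1080 moved by less than 0.11 (log2), and 0 of those past 2-fold changed sign. Of 645 values of the named genes, 411 stayed within 0.11 and 8 changed sign. With normexp at 1 week these were Crisp1 (-1.42), Pantr1 (-0.52), Hoxd13 (0.38), Trhr2 (0.42), Olfr532 (1.21), Mbl2 (1.08) and Lipg (0.18), and with every probe on its own Ttbk1 at 2 weeks (0.54). Counts of genes depended on the setting. With normexp, 9610 genes were higher and 666 lower at 1 week, 97 and 1356 at 2 weeks, and 887 and 443 at 4 weeks. Without spots of bright local background, an alternative chosen after seeing the data, normexp gave 227 and 982 at 1 week, and the same counts at 2 and 4 weeks. Centring on the median gave 1070 higher at 1 week, and 1073 higher and 1412 lower at 2 weeks. Quantile normalization gave 851 higher at 1 week, and 684 and 1479 at 2 weeks. With no filter on background the counts were 829 and 3180, 584 and 4109, and 2256 and 1615. Requiring the higher signal to lie above the median of its array left 1538 lower at 2 weeks. Past 4-fold they were 44 and 311, 14 and 441, and 207 and 81. Against centring on the median, the median difference of all genes moved from -0.15 to 0.07 at 1 week, from -0.14 to 0.19 at 2 weeks and from 0.05 to -0.09 at 4 weeks. The cause was not tested, beyond the bright spots at 1 week. Each value rests on 1 pool, 1 control array enters every difference, and dim genes near background carry the largest error.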
